A study of Mus musculus with 32 samples.

Results

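The vomeronasal organ (VNO) of the mouse, which detects pheromones, yielded reads on 8 annotated copies of other genes whose counts differed widely between inbred strains. These copies are Gm12033, Gm13394, Rps2-ps13, Ftl2-ps, Ftl1-ps1, Gm15459, Gm15772 and Tmem181b-ps. They were chosen by name out of 49671 genes in the count tables because of their differences between strains, so those differences are given here as a description without a test. RNA came from the VNO epithelia of individual mice of the strains SWR/J (SWR), C57/BL6 (B6), 129S6/SVEV (129) and SJL/J (SJL), at 42 days of age and with no treatment named. Each strain was represented by 4 males and 4 females, 32 mice in all, and the labels name no transgene or deletion. Ribosomal RNA was removed from total RNA, and the deposited tables count, per gene and strand, the read pairs placed at 1 position of the genome. Every library, whatever its strain, was aligned to the same reference genome (GRCm38), which is that of a B6 mouse.

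A processed pseudogene, or retrocopy, is made when a messenger RNA is reverse transcribed and inserted into the genome at another place. It therefore lacks the introns of its parent gene and, unless it lands beside a promoter, it is usually silent. Genes with abundant messenger RNA in the germ line, such as those for ribosomal proteins and glycolytic enzymes, have left many such copies in the mouse genome. An unprocessed pseudogene instead comes from a duplicated stretch of DNA and keeps the exons and introns of its source. A young copy can match its parent almost base for base, and a read can then be assigned to the copy or to the parent only where it covers a base that differs.

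The closest protein-coding gene of each copy was found by aligning its annotated transcript to those of all protein-coding genes (GENCODE M21, GRCm38). Gm12033 (chr11:20335012-20336013, minus strand) and Gm13394 (chr2:28933610-28934609, minus strand) were copies of Gapdh on chromosome 6, which encodes the glycolytic enzyme glyceraldehyde-3-phosphate dehydrogenase. Rps2-ps13 (chrX:52898588-52899469, plus strand) was a copy of Rps2 on chromosome 17, which encodes a protein of the small ribosomal subunit. Ftl2-ps (chr4:125504288-125504839, plus strand) and Ftl1-ps1 (chr13:74399694-74407346, plus strand) were copies of Ftl1 on chromosome 7, which encodes the light chain of ferritin, the iron storage protein. Gm15459 (chr5:5781615-5783555, minus strand) was a copy of Hspa8 on chromosome 9, which encodes a constitutive chaperone of the Hsp70 family. Gm15772 (chr5:3236431-3236868, plus strand) was a copy of Rpl26 on chromosome 11, which encodes a protein of the large ribosomal subunit. Tmem181b-ps (chr17:6438524-6467022, minus strand) had Tmem181a on the same chromosome, which encodes a transmembrane protein, as its closest gene.

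The aligned transcript of each of the first 7, the retrocopies, was 1 exon that covered 100% of the coding bases of the parent, with 0 stop codons before the last codon in the reference sequence. In the count tables, 6 of these are annotated as processed pseudogenes and Ftl1-ps1 as protein-coding. Ftl1-ps1 also has a second annotated transcript of 4 exons, which is why its bounds are wide. Tmem181b-ps was the exception to the name retrocopy, being a transcribed unprocessed pseudogene whose transcript has 9 exons and aligned to Tmem181a over 1680 bases with 14 mismatches and 7 gap bases. Identity to the parent transcript ranged from 98.73% for Ftl2-ps to 99.9% for both copies of Gapdh.

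The share of transcript stretches as long as a read that occur in no annotated gene elsewhere in the genome shows how much of a gene a single read could identify. Such stretches made up 14.2% of Gm12033, 14.3% of Gm13394, 24.7% of Gm15459 (448 of 1817), 27.6% of Rps2-ps13 (209 of 758) and 39.4% of Ftl1-ps1 (321 of 814). They made up 42.3% of Ftl2-ps, 53.3% of Tmem181b-ps and 75.2% of Gm15772. The parents were limited in the same way, with 16.7% of Gapdh, 40.9% of Hspa8, 46.4% of Ftl1, 47.7% of Rps2, 77.9% of Rpl26 and 78.6% of Tmem181a made up of stretches of their own. Gapdh shared stretches with 61 other annotated genes. The search covered annotated transcripts only, and the mate of a read could also make a pair unique, so these shares are a guide and not the share of reads that could be counted.

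The stretches that carry the differences are given in the direction of the gene, with 30 bases on either side, because the counts of a copy and of its parent rest on them. Capitals mark the bases at which a copy differs from its parent, and in the parent the bases at which any copy shown with it differs. Positions are counted from 1 at the A of the start codon of the parent. Each copy of Gapdh differed from it by 1 coding base, T504C in Gm12033 and A346C in Gm13394, and neither changes the amino acid. Coding bases 474 to 534 hold the first of them (Gm12033 at chr11:20335480-20335540, Gm13394 at chr2:28934076-28934136, both on the minus strand).
Gapdh: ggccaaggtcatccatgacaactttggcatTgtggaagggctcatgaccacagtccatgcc
Gm12033: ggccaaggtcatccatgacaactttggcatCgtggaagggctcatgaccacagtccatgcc
Gm13394: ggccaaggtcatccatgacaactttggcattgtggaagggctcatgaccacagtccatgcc

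Coding bases 316 to 376 hold the second (Gm12033 at chr11:20335638-20335698, Gm13394 at chr2:28934234-28934294). Among annotated transcripts, the stretches of read length found in 1 of these copies alone were those that cover its differing base.
Gapdh: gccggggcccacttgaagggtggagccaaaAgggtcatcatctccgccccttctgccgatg
Gm12033: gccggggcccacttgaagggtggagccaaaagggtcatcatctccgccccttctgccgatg
Gm13394: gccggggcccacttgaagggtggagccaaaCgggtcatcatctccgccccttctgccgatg

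Gm15772 differed from Rpl26 at 2 bases, C177T and T288C, neither of which changes the amino acid. Both lie in coding bases 147 to 318 (copy at chr5:3236577-3236748, plus strand).
Rpl26: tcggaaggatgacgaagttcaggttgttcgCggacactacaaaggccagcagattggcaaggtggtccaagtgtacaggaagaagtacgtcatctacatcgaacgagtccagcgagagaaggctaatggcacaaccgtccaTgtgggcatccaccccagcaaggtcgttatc
Gm15772: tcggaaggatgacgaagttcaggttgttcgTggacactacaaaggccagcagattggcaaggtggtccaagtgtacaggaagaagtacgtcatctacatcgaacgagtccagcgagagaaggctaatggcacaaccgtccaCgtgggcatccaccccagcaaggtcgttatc

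Rps2-ps13 differed from Rps2 at 7 bases (T60A, A84G, T204C, G300A, C444T, C453A and T756C), all without an amino acid change. The pair that lies closest together is shown (coding bases 414 to 483, copy at chrX:52899001-52899070, plus strand).
Rps2: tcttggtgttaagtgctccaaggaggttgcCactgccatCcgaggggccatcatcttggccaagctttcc
Rps2-ps13: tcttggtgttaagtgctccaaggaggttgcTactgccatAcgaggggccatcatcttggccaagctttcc

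Both copies of Ftl1 carried the same 2 differences from it, which keep the amino acid. Ftl2-ps carried 5 more differences. Of these, A307C changes an amino acid, and A401T and T402C, which lie in the same codon, together change 1 more. Ftl1-ps1 had its remaining 2 differences outside the coding part.

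Gm15459 differed from Hspa8 at 5 of its coding bases. G114A, C414T, C549T and C1440T leave the amino acid as it is, and G1222A, shown here, changes it (coding bases 1192 to 1252, copy at chr5:5782304-5782364, minus strand).
Hspa8: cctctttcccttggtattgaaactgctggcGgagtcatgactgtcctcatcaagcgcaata
Gm15459: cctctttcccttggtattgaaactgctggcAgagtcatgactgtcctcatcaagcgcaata

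**Figure D1:**
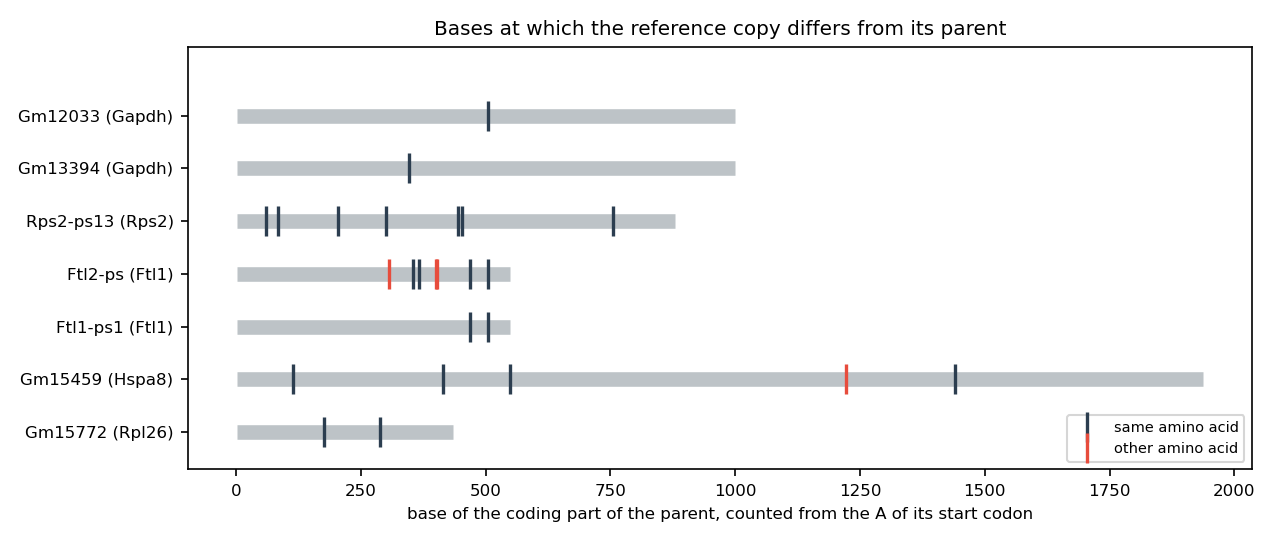
Differences of the 7 retrocopies from their parents along the coding part of the parent (x axis, bases from the A of the start codon), where grey bars give the coding part. Dark lines are differences that keep the amino acid, and red lines are those in a codon whose amino acid changes. Of the copies shown, Gm12033 and Gm13394 carry 1 difference each, and Ftl2-ps and Gm15459 are those with a red line.

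Totals ranged from 5106398 to 18640871 counted reads per library, with a median of 11461300. Of the 49671 genes, 18382 passed the filter on low counts, and these included all 8 copies. Copies with at most 4 reads per library outside 1 strain passed through that strain alone, while Tmem181b-ps had at least 184 reads in every library. Genes were called between strains when any of the 6 pairs of strains had an absolute log2 fold change (LFC) above 1 with a false discovery rate (FDR) below 0.05, which held for 3632 genes or 19.8%. All 8 copies met these limits, as the way they were chosen required, and of the 596 tested genes with a pseudogene biotype 54.5% did. Reads on gene families of other tissues, a measure of background, amounted to a median of 26.05 rpm and were highest in B6 (26.2 to 49.0) and lowest in 129 (20.5 to 25.1). Of 6 markers of vomeronasal sensory neurons 5 had reads, and their summed normalized counts ranged from 24334 to 40113 over all libraries, while Trpc2 was listed at 0 in all 32. That 0 does not show that RNA of Trpc2 is absent. Xntrpc, another marker of the list, had means between 715 in B6 and 1213 in 129.

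Reads of 4 copies came almost entirely from 1 strain. Gm12033 had normalized counts of 1176, 1332 and 1587 (lowest, median and highest of 8 mice) in SWR, with a mean of 1350.3 ± 131 (SD, n = 8). In the other strains no library had more than 3 of its reads, and the largest normalized count was 2.86. Set against a floor of 3 reads per library, Gm12033 was at least 334-fold higher in SWR than in 129, the strain with the next highest mean.

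The other copy of Gapdh, Gm13394, was high in SJL instead. Its normalized counts there were 890, 1026 and 1159, with a mean of 1024 ± 76.4 (SD, n = 8). No library of another strain had more than 2 of its reads, so that it was at least 268-fold higher in SJL than in SWR, the next strain. The Gapdh copies thus did not overlap in strain, each with all its 8 high libraries in a strain where the other stayed at 2 reads or fewer.

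Rps2-ps13, the only copy on the X chromosome, was high in SWR with normalized counts of 833, 959 and 1058 and a mean of 953 ± 79.2 (SD, n = 8). It had 0 reads in all 8 mice of 129 and at most 4 reads in any mouse of B6 or SJL, where the means were 1.42 ± 1.97 and 1.08 ± 1.34. The log2 ratio of SWR to B6, on the scale of the mean normalized count + 1, was 8.63. Ftl2-ps had normalized counts of 129, 178 and 221 in SJL, with a mean of 176 ± 30.2 (SD, n = 8). Elsewhere it had at most 1 read in a library and 0 in all 8 mice of B6, and it was at least 43.6-fold higher in SJL than in 129. A count of 0 or 1 read does not show that a copy is silent, only that it was under what this depth detects.

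The remaining 4 copies were not private to a strain. Ftl1-ps1 had few reads anywhere and was highest in 129, with normalized counts of 21.7, 27.6 and 56.98 and a mean of 31.6 ± 12.1 (SD, n = 8). Means of 4.65 ± 2.06 in B6 and 4.33 ± 3.18 in SWR followed, and these did not differ beyond their spread. In SJL it had 0 reads in all 8 mice, and 129 was at least 10.9-fold above the floor of 3 reads per library there. The copies of Ftl1 were therefore opposite in SJL, where Ftl2-ps was high and Ftl1-ps1 was not detected.

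Gm15459 had the highest counts of the 8 and was high in every strain but B6. Its normalized counts were 3849, 4227 and 4361 in 129, 3703, 4247 and 4502 in SJL, and 3942, 4558 and 4846 in SWR. The means in SWR (4475 ± 335), SJL (4207 ± 274) and 129 (4194 ± 174) came from overlapping ranges. In B6, the strain of the reference genome, the counts were 19.3, 35.5 and 60.6.

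Gm15772 was high in SJL, with normalized counts of 1545, 2093 and 2345, and in SWR, with 2095, 2483 and 3319. The ranges of the SJL and SWR mice overlapped, and the means were 2047 ± 268 and 2545 ± 359 (SD, n = 8 each). It was low but present in every mouse of B6 (9.13, 12.4 and 24.99) and of 129 (5.54, 7.97 and 12.02). These SJL and SWR ranges lay above every library of B6 and 129.

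Tmem181b-ps was detected in every mouse of every strain, with no fewer than 184 reads, and was highest in 129. Its normalized counts there were 1118, 1248 and 1312, with a mean of 1238 ± 69.4 (SD, n = 8). The means in B6 (345 ± 37.6), SWR (309 ± 32.7) and SJL (303 ± 26.2) were close, the ranges of those 3 strains overlapped, and the log2 ratio of 129 to B6 was 1.84. Macrophage markers were lowest in the same strain, with a sum over 4 markers of 417 to 663 in 129, 641 to 950 in SWR, 963 to 1186 in SJL and 923 to 1341 in B6. C1qa and Lyz2 of that list were called between strains, none of the 4 was at 0, and their part in the 129 values of Tmem181b-ps and Ftl1-ps1 was not tested. In bulk RNA, a change in the number of cells of a type and in the RNA per cell cannot be told apart.

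**Figure D2:**
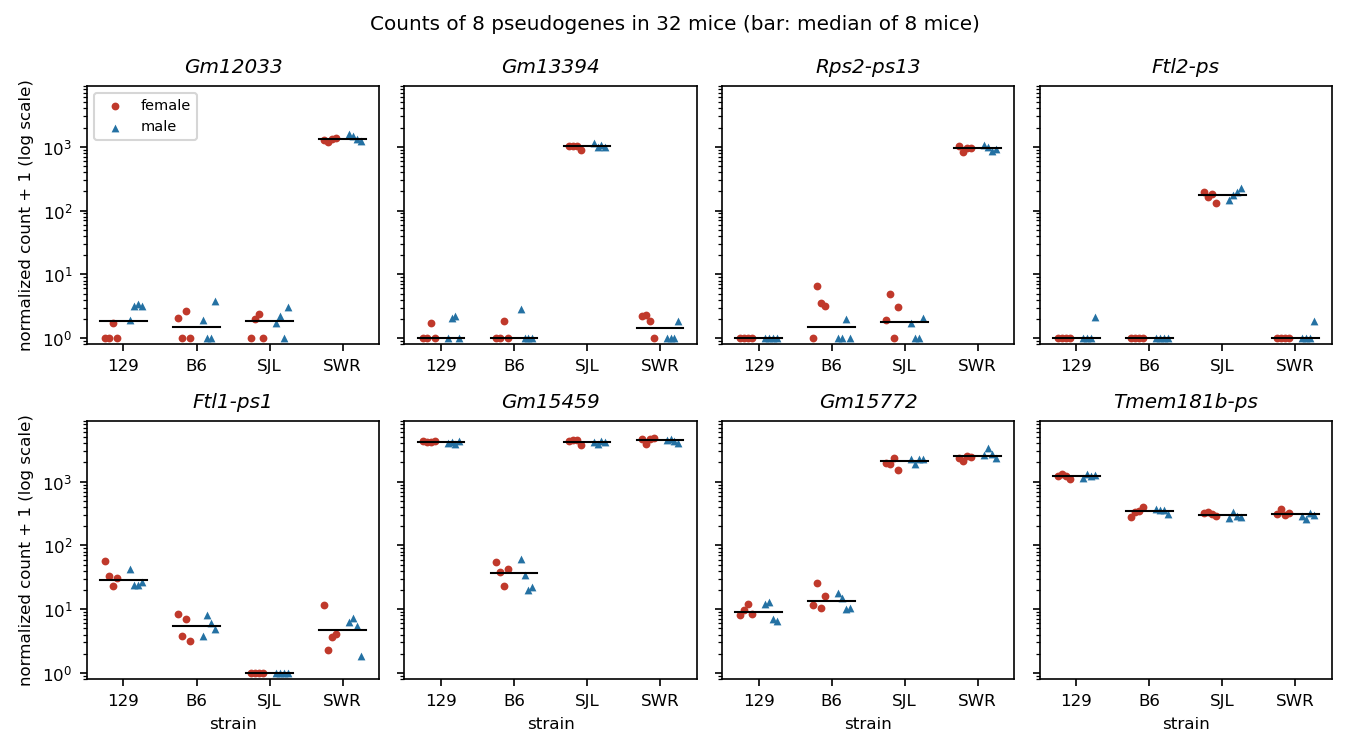
Normalized count + 1 (y axis, log scale) of each of the 8 copies in each of the 32 mice by strain, where circles are females, triangles are males and bars are medians of 8 mice. Gm12033 and Rps2-ps13 are high in SWR alone, Gm13394 and Ftl2-ps in SJL alone, Gm15772 in both, Gm15459 in every strain but B6, and Ftl1-ps1 and Tmem181b-ps are highest in 129.

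In B6, whose genome served as the reference for every library, the 7 retrocopies had means between 0 (Ftl2-ps) and 36.3 (Gm15459) normalized counts. Whether the other strains carry the reference bases at the parent and at the copy was not tested, because the sequences of those strains were not analysed here.

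Parents were found by sequence and not by their counts, and their differences between strains were fitted like those of any gene. A parent and its copy share sequence, however, so their counts are not independent measurements. A read pair counted on the copy is not counted on the parent, and the copies were chosen for their strain differences. The FDR of the parents therefore cannot be taken as independent of that choice. Of the 6 parent genes 3 were called in at least 1 pair of strains (against 19.8% of all tested genes), and with the FDR alone, which 80.1% of tested genes pass, all 6 were. Rpl26 was the most different. Its normalized counts were 2715, 2957 and 3823 in 129 and 3102, 3596 and 4074 in B6, but 200.2, 277 and 318 in SJL and 293, 388 and 542 in SWR. The SJL and SWR mice, which had the high counts of its copy Gm15772, were thus all below the others. The LFC was -3.70 ± 0.0975 (SE) for SJL minus B6 (FDR = 4.12e-26), -3.23 ± 0.0946 for SWR minus B6 (FDR = 9.08e-25), -3.48 ± 0.0968 for SJL minus 129 (FDR = 3.28e-25) and -3.01 ± 0.0939 for SWR minus 129 (FDR = 5.97e-24).

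Ftl1 was lower in SJL, with normalized counts of 1131, 1446 and 1587, than in the other strains, whose means were 4071 ± 247 in 129, 3774 ± 373 in B6 and 4249.6 ± 387 in SWR. No mouse of another strain came below 3205. The LFC was -1.52 ± 0.0600 (SE) for SJL minus 129 (FDR = 8.03e-21), -1.41 ± 0.0599 for SJL minus B6 (FDR = 5.14e-20) and 1.57 ± 0.0600 for SWR minus SJL (FDR = 4.19e-21). SJL was also the strain in which Ftl2-ps was high, with a mean of 176 normalized counts. A relation of Ftl2-ps to the Ftl1 counts between strains was not tested.

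Rps2 had means of 2518 ± 374.6 in B6 and 2189 ± 115 in 129, and of 1272 ± 98.0 in SJL and 1143 ± 73.5 in SWR. Only SWR minus B6 passed both limits (LFC = -1.15 ± 0.0655, FDR = 2.08e-16), while SJL minus B6 fell just short of the limit on the fold (LFC = -0.99, FDR = 1.11e-14). This call depended on the fit, since SJL minus B6 passed both limits with the share of background reads as a covariate (LFC = -1.03, FDR = 5.40e-12) and without any 1 of B6 female replicate 2, B6 male replicates 1 and 2 and SJL male replicate 2 (LFC from -1.024 to -1.003). Its copy Rps2-ps13 was high in SWR only, so the low Rps2 counts of SJL had no counterpart in that copy.

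The other parents differed less and were not called. Gapdh had means of 10316 ± 304 in 129 and 9177 ± 636 in B6, and lower ones in the strains with a high copy, 6970.3 ± 407 in SJL and 7058 ± 643 in SWR. Each of these differences from 129 had a small FDR (SJL, LFC = -0.57, FDR = 2.44e-11; SWR, LFC = -0.56, FDR = 3.92e-11). Hspa8 was highest in B6, the strain where its copy was low, at 18171 ± 1661 against 11578 ± 612 in 129, 11787 ± 792 in SJL and 12348 ± 687 in SWR. The LFC of B6 minus 129 was 0.65 ± 0.0505 (FDR = 7.89e-13). Tmem181a went the other way, since it was highest in 129 together with Tmem181b-ps, at 1023 ± 83.7 against 825 ± 63.4 in B6 (LFC of B6 minus 129 = -0.31, FDR = 1.33e-05). With the share of background reads as a covariate, the same LFC was -0.20 (FDR = 0.0690).

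**Figure D3:**
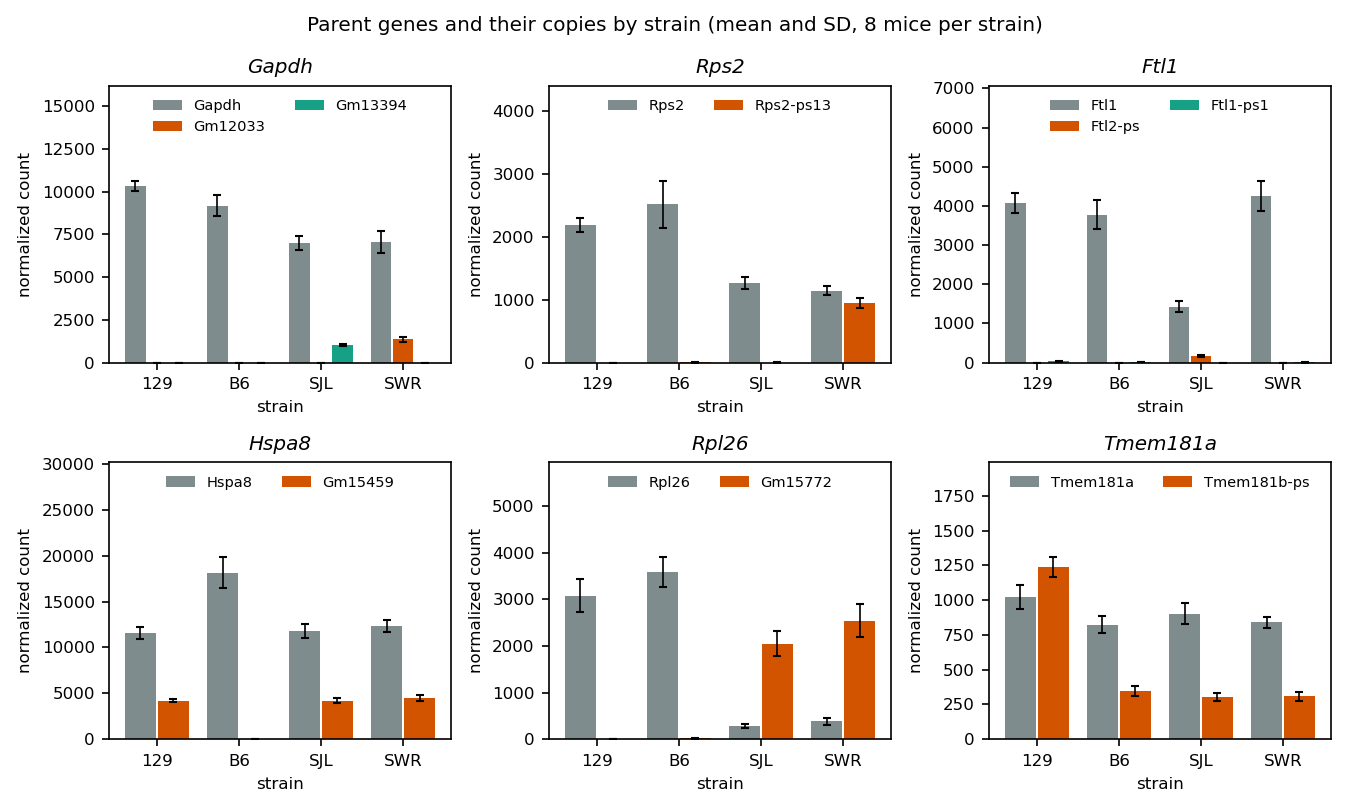
Normalized counts (y axis) of the 6 parent genes, in grey, and of the 8 copies, in colour, by strain (x axis), where bars are means of 8 mice and error bars are SD. Rpl26 is at 277 and 385 in SJL and SWR, where Gm15772 is at 2047 and 2545, and Hspa8 is highest in B6, where Gm15459 is at 36.3.

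The reads of a copy can also be expressed as a percentage of those of its parent in the same library. In SWR, Rps2-ps13 reached 83.4% ± 3.56 (SD, n = 8) of the reads of Rps2, and Gm12033 19.1% ± 0.582 of those of Gapdh. In SJL, Gm13394 had 14.7% ± 1.01 of the reads of Gapdh and Ftl2-ps 12.3% ± 1.56 of those of Ftl1. Gm15459 was at 36.3% ± 0.825 of Hspa8 in 129, 35.7% ± 0.737 in SJL and 36.2% ± 1.29 in SWR, so that the strains with a high copy had much the same share, and at 0.198% ± 0.0796 in B6. Gm15772 had more reads than its parent, 739% ± 47.2 of Rpl26 in SJL and 672% ± 82.1 in SWR, against 0.285% ± 0.0937 in 129 and 0.390% ± 0.174 in B6. Tmem181b-ps had 122% ± 12.8 of the reads of Tmem181a in 129 and 33.6% to 42.1% in the other strains, and Ftl1-ps1 at most 0.779% ± 0.316 of those of Ftl1.

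These shares compare genes that differ in how many reads can be told apart. Per stretch of read length found in no gene elsewhere, Gm15459 had 9.36 normalized counts in 129 against 12.5 for Hspa8, 9.39 against 12.7 in SJL and 9.99 against 13.3 in SWR. Rps2-ps13 had 4.56 against 2.47 for Rps2 in SWR. Gm12033 had 10.8 against 36.8 for Gapdh in SWR, and Gm13394 8.20 against 36.3 in SJL. On this scale, too, Gm15772 was above Rpl26, with 8.67 against 0.886 in SJL and 10.8 against 1.23 in SWR.

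The reads of each parent were added to those of its listed copies and the sum was fitted as 1 gene, in place of the parent alone. This comparison was chosen after the values had been seen, and since a sum holds the counts for which the copies were chosen, it is a description with no test. For Rpl26 with Gm15772 the means were 2324 ± 301 in SJL, 2930.2 ± 427 in SWR, 3089.9 ± 360.1 in 129 and 3599.6 ± 313 in B6. The LFC of SJL minus B6 was -0.64 ± 0.0784 for the sum, where it was -3.70 for Rpl26 alone, and that of SWR minus 129 was -0.09 ± 0.0779, where it was -3.01.

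For Rps2 with Rps2-ps13 the mean in SWR rose from 1143 to 2096 ± 147, beside 2189 ± 115 in 129. The LFC of SWR minus B6 became -0.27 ± 0.0652, and SJL had a sum of 1273 ± 97.7 (LFC of SWR minus SJL = 0.71 ± 0.0659). Hspa8 with Gm15459 had means between 15772 ± 774 in 129 and 18207 ± 1667 in B6, and the LFC of B6 minus 129 went from 0.65 to 0.21 ± 0.0503. For Gapdh with both its copies the LFC of SWR minus B6 went from -0.39 to -0.14 ± 0.0501, and that of SJL minus B6 from -0.40 to -0.20 ± 0.0501. The differences of Gapdh from 129 stayed larger, at -0.37 ± 0.0501 for SJL (from -0.57) and -0.30 ± 0.0501 for SWR (from -0.56). The Ftl1 sum was 1604 ± 169 in SJL (LFC of SJL minus B6 = -1.24 ± 0.0605).

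For Tmem181a with Tmem181b-ps, both highest in 129, the LFC of B6 minus 129 was -0.31 for Tmem181a alone and -0.95 ± 0.0454 for the sum. The part that placement of reads on the copy or on the parent had in the differences of either was not tested.

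**Figure D4:**
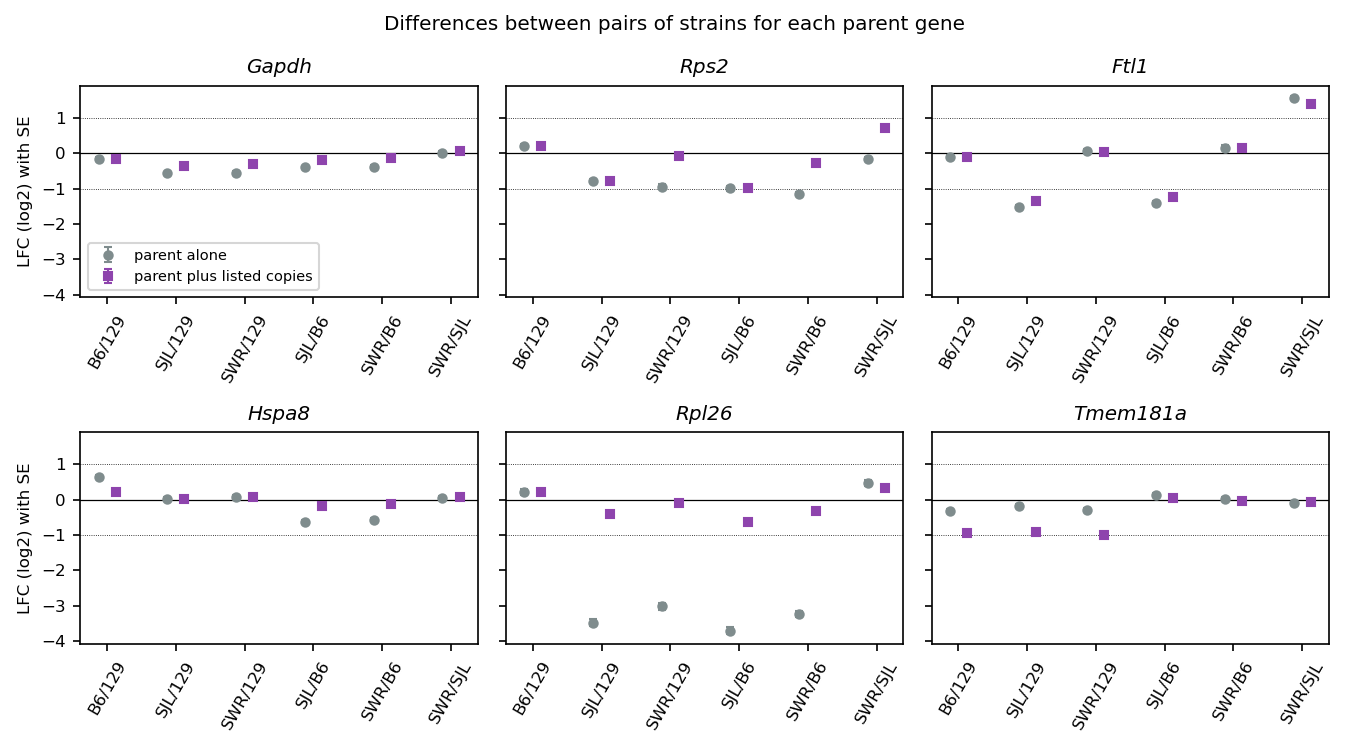
LFC (y axis, log2, with SE) of each parent gene in each of the 6 pairs of strains (x axis, first strain minus second), where grey circles are the parent alone, purple squares the parent with its listed copies, and dotted lines an LFC of 1 and -1. For Rpl26 the values between -3.70 and -3.01 move to between -0.64 and -0.09, those of Ftl1 in the pairs with SJL stay beyond the dotted lines, and those of Tmem181a move away from 0 in the pairs with 129.

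The parents have many other annotated copies, which shows how few reach these counts. With at least 80% identity over at least 50% of their length, 305 other copies were found, 184 of Gapdh, 79 of Rps2, 16 of Rpl26, 13 of Ftl1, 12 of Hspa8 and 1 of Tmem181a. Of these, 237 had a mean under 1 normalized count in every strain, 9 had no read at all, and 4 had a mean above 10 in any strain. Only 7 passed the filter on low counts and 2 of them were called. That is 28.6%, against 19.8% of all tested genes and 54.5% of those with a pseudogene biotype. The number rests on the filter and the tool, since DESeq2 called 10 of 67 copies (14.9%, against 26.0% of all genes it tested), and edgeR without the filter called 61 of 296 (20.6%, against 28.6% of all genes with a read).

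Both called copies were high in SJL. Outside SJL they had at most 5 reads per library, so they passed the filter on low counts through SJL alone. A call against SJL was therefore largely fixed by the filter, and their differences are given as a description. Rps2-ps10 had normalized counts of 288, 372 and 427 in SJL, against at most 4.68 in any mouse of another strain. Its mean in SJL was 358 ± 44.4 (SD, n = 8), and the LFC of SJL minus B6 was 8.58 ± 0.313. SJL is the strain in which Rps2 was low without a high Rps2-ps13. The Rps2 mean was 1272 in SJL, 2189 in 129 and 2518 in B6. A relation of Rps2-ps10 to the Rps2 counts was not tested. Ftl1-ps2 had 12.8, 20.1 and 27.5 in SJL and at most 2.35 elsewhere, with a mean of 20.4 ± 4.72 (LFC of SJL minus 129 = 5.05 ± 0.462). The other copies of Ftl1 summed to 26.0 ± 5.63 in SJL, beside the 176 of Ftl2-ps. The remaining tested copies, Gm3695, Gm17068 and Gm7497 of Gapdh, Gm17971 of Rps2 and Gm8355 of Hspa8, had means of at most 14.7 and were not called.

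The genes that overlap a copy and the nearest tested gene on each side were examined as well. Of 22 such genes 18 were tested and 4 were called (22.2%, against 19.8% of all tested genes), while of the 18 tested genes within 100 kb of a copy 2 were (11.1%). The 4 included Dynlt1b, which lies 2228 bases from Tmem181b-ps on the other strand and encodes a light chain of the dynein motor, and Gm26848, a long noncoding RNA whose bounds enclose Tmem181b-ps on the other strand without sharing exon bases. Dynlt1b had normalized counts of 556, 583 and 696 in 129, against means of 155 ± 16.1 in B6, 140.1 ± 16.1 in SJL and 146 ± 17.5 in SWR (LFC of SJL minus 129 = -2.10 ± 0.0719, FDR = 1.11e-22). Gm26848 had 19.7, 29.9 and 48.8 in 129 and at most 6.58 in any other mouse (LFC of SJL minus 129 = -4.53 ± 0.407, FDR = 3.49e-11).

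Tmem181b-ps and both of these neighbours were thus highest in 129 and alike in the other strains. Dynlt1c, the nearest tested gene on the other side at 134649 bases, was not called and had means between 212 ± 14.6 in B6 and 237 ± 26.3 in 129. Dynlt1b has close relatives of nearly the same sequence, among which its reads may be split, so its level is uncertain.

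The neighbours of the retrocopies included none that was called with the copy's strain as its high one. Slc1a4, a neutral amino acid transporter whose annotated start lies 2299 bases downstream of Gm12033 on the same strand, had an LFC of at most 0.29 in size over the 6 pairs. Gm13394 lies inside an intron of Cfap77, which encodes a protein of cilia, on the same strand, and Cfap77 had at most 30.9 normalized counts in any mouse and was not called. Ftl2-ps likewise lies in an intron of Grik3, a glutamate receptor subunit, which had means between 24.9 ± 7.58 in SWR and 33.8 ± 8.79 in B6 and was not called. Phf6, 12797 bases from Rps2-ps13, differed by an LFC of at most 0.13 in size. The other called neighbours were Steap4 (2176902 bases from Gm15459) and Cdk6 (104617 bases from Gm15772). Cdk6, a cell cycle kinase, had means of 145 ± 19.2 in SJL, 215 ± 49.0 in SWR, 176 ± 28.5 in 129 and 355 ± 67.6 in B6, and was called in SJL minus B6 (LFC = -1.29 ± 0.109, FDR = 6.91e-12), the reverse of Gm15772. Steap4, a metalloreductase, was called only in SJL minus 129 (LFC = 1.43 ± 0.189, FDR = 1.63e-07), a pair in which Gm15459 was alike.

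Gm26825, a long noncoding RNA on the other strand, shares 1860 of the 1941 exon bases of Gm15459 and was too low to be tested. The counts are by strand, which keeps these apart. Mir692-2 shares 91 bases with Ftl2-ps and Mir692-3 shares 109 with Ftl1-ps1 on the same strand, and read pairs that overlap 2 annotated genes are left out of counts of this kind.

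The parents can also be set beside genes of the same function. Of 34 tested genes listed by the symbols of 40S ribosomal proteins, 3 were called (8.82%, against 19.8% of all tested genes), namely Rps2, Rps3a1 and Rps18. Because it was drawn up by symbol, the list also holds Rps19bp1, which is named as a binding protein of Rps19 and not as a subunit protein. Rps3a1 was low in 129, with a mean of 1038 ± 159 against 4191 ± 413 in B6 (LFC of B6 minus 129 = 2.01 ± 0.0852, FDR = 4.78e-20), and Rps18 was low in SJL, with 1169.5 ± 119 against 2873 ± 198 in B6 (LFC = -1.30 ± 0.0679, FDR = 1.75e-17). Of the 34, Rps2 was the only one called lower in SWR than in B6. Of 14 tested genes of iron storage and uptake 3 were called (21.4%), namely Ftl1, Hmox1 and Steap3. Fth1, the heavy chain that assembles with the product of Ftl1, was not called and had means of 5361 ± 604 in SJL, 5362 ± 771 in B6, 6538 ± 516 in SWR and 8497 ± 584 in 129, and the LFC of SJL minus B6 was -0.005 ± 0.0725 (FDR = 0.964). Hmox1, which degrades heme, was lowest in B6 (LFC of B6 minus 129 = -1.24 ± 0.0802, FDR = 6.60e-15), and Steap3, a reductase of iron, was higher in SJL than in 129 (LFC = 1.48 ± 0.145, FDR = 2.90e-10).

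Sex had not been used to choose the copies, and males were compared with females over all strains with strain as a term in the fit. None of the 8 copies was called (0.0381% of all tested genes were), the LFC of male minus female ranged from -0.19 to 0.16, and the smallest FDR was 0.526. Only Gm15772 had an unadjusted p under 0.05 (LFC = 0.16 ± 0.0742, FDR = 0.526), and DESeq2 called 0 copies and gave 0 with an unadjusted p under 0.05. Within strains, 21 combinations of a copy and a strain had more than 3 reads in a library. None was called by edgeR or by DESeq2. Of all tested genes, edgeR called 0.0381% in 129 mice, 0.0544% in B6 mice, 0.0544% in SJL mice and 0.0816% in SWR mice. Of the 21 combinations 2 had an unadjusted p under 0.05, both for Rps2-ps13 at no more than 4 reads per library, in B6 (LFC = -2.81 ± 1.02, FDR = 0.438) and in SJL (LFC = -1.91 ± 0.916, FDR = 0.750). Males and females overlapped in all 21, and the share of all tested genes with such overlap is not given here. Below that cut on reads, Gm12033 in 129 had no overlap, at no more than 2 reads per library (LFC = 2.51 ± 0.966, FDR = 0.529). In SWR, where Rps2-ps13 was high, it had means of 959.5 ± 85.8 in 4 males and 947 ± 84.6 in 4 females.

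The differences between strains do not enter a comparison of mice within 1 strain, so each copy was correlated with its parent over the 8 mice of the strain in which it was highest. Both values of a mouse were divided by the same library factor, each of the 4 replicate numbers held only 2 of the 8 mice, and p-values are two-sided from exact permutation tests, adjusted over the 8 copies. A copy and its parent also share sequence, so their counts are not independent measurements. The part that placement of reads on either had in these correlations was not tested. How often other pairs of genes reach an r of this size in the same mice was not examined. The correlations are therefore not shown to be particular to a copy and its parent. Gm12033 rose with Gapdh in SWR (Pearson r = 0.944, exact p = 0.000546, adjusted 0.00437, Spearman rho = 0.905, exact p = 0.00456, adjusted 0.0290), and r was 0.945 without the 2 mice farthest from the median of Gapdh. Gm15459 rose with Hspa8 in SWR (r = 0.898, exact p = 0.00362, adjusted 0.0145, rho = 0.833, exact p = 0.0154, adjusted 0.0410), with r = 0.920 without 2 mice. The relation of Rps2-ps13 to Rps2 in SWR (r = 0.863, exact p = 0.00707, adjusted 0.0188, rho = 0.881, exact p = 0.00724, adjusted 0.0290) fell to r = 0.654 without 2 mice (exact p = 0.154), on which it rests. That of Gm15772 to Rpl26 in SWR (r = 0.837, exact p = 0.0205, adjusted 0.0409, rho = 0.595, exact p = 0.132, adjusted 0.265) rests on 2 mice as well, since r was -0.052 without them, and it was 0.456 without SWR male replicate 2 (exact p = 0.316) and 0.786 without SWR female replicate 2 (exact p = 0.0770).

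The other copies had no relation to their parent that passed the test over 8 mice. The r was 0.678 for Ftl2-ps with Ftl1 in SJL (exact p = 0.0603, adjusted 0.0964, rho = 0.476, exact p = 0.243, adjusted 0.324), 0.479 for Gm13394 with Gapdh in SJL (exact p = 0.265, adjusted 0.354, rho = -0.143, exact p = 0.752, adjusted 0.859), 0.159 for Tmem181b-ps with Tmem181a in 129 (exact p = 0.704, adjusted 0.805, rho = 0.476, exact p = 0.243, adjusted 0.324) and -0.071 for Ftl1-ps1 with Ftl1 in 129 (exact p = 0.877, adjusted 0.877, rho = -0.071, exact p = 0.882, adjusted 0.882). For Gm13394 the r turned to -0.803 without the 2 mice farthest from the median (exact p = 0.0431), so its sign rests on those mice. Without 2 mice it was 0.571 for Ftl2-ps, 0.683 for Tmem181b-ps and -0.431 for Ftl1-ps1.

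The genes most like each copy were found by Pearson's r of log2(normalized count + 1) over all 32 libraries, which share strains in groups of 8, so that any gene with the same high strain scores near 1. They are given as a description. Gm13394 and Ftl2-ps were the closest to each other (r = 0.991), followed by Herc2 for Gm13394 (0.987) and Gm6394 for Ftl2-ps (0.986). Gm12033 was followed by Gm13736 (0.976) and Rps24-ps3 (0.975), and Rps2-ps13 by H2-Ea-ps (0.980) and Gm13736 (0.978). For Gm15459 they were Eno1b and Gm6472 (0.993 each), and for Gm15772 Gm4735 (0.992) and Gm6356 (0.990). Tmem181b-ps was closest to Vmn1r7, a vomeronasal receptor gene (0.988), and Gm18562 (0.979), and Ftl1-ps1 to Dsel (0.927) and Plscr1 (0.926). Rps24-ps3 had a mean of 707 in SWR against at most 7.42 in another strain, and Eno1b a mean of 2.09 in B6 against 661 to 834 elsewhere.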

How the data were processed

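RNA of the VNO epithelium of 32 mice was measured. Per the labels and the study's methods, the authors trimmed reads, aligned them with STAR to GRCm38 and deposited the stranded counts of uniquely placed read pairs per gene, and deposited as signal the counts divided by DESeq2 size factors (normalized counts). The replicate number is the number in each library description, whose meaning the labels do not give. Members and gene lists were chosen with earlier results of these data known.

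Strains (with sex as covariate) and sexes were compared with edgeR 4.0.16 in R 4.3.3 (TMM, filterByExpr over 8 groups, quasi-likelihood F test), with p-values adjusted by Benjamini-Hochberg over 18382 genes. SE was computed as absolute LFC over the root of F. On simulated data with 200 changed genes among 17826, the test called 195 between SWR and 129 and 193 between sexes, with 0 unchanged genes. Transcripts of GENCODE M21 were aligned with blastn 2.17.0, all 8 members being found by identifier. DESeq2 1.42.0 served for alternatives. Strains with 3 reads or fewer in every library were treated as a floor, which covers counting error only. Libraries differed from each other by more than sampling noise (lowest chi-square per degree of freedom of 48 pairs, 3.01). Named genes are the members, parents, the 3 highest other copies per parent, neighbours, the 2 most alike genes per member, and called genes of the 2 functional lists.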

Additional observations from a re-analysis of the deposited data

Results flagged for a closer look

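In 82 groups of 4 mice of 1 strain and sex, the gap of the highest or lowest value of a copy or parent to the next one was compared with the range of the group, and in 6 groups 1 mouse stood apart. Chance gives about 1 in 20 groups. Gm13394 was at 890 in SJL female replicate 4, where the other females had 1019.6 to 1039. The same mouse had 3703 for Gm15459, beside 4401 to 4502 in the other females. Gm15772 was at 1885 in SJL male replicate 2, where the other males had 2228 to 2262. Ftl1-ps1 was at 41.2 in 129 male replicate 1, above 22.6 to 25.5 in the others. Ftl1 was at 3402 in SWR female replicate 2, below 4159.6 to 4265. Rpl26 was at 3414 in 129 female replicate 4, above 2869.8 to 2939.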

How the results depend on the processing

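With the replicate number as a block, 8 members, 3 parents, 2 other copies, 4 neighbours, 3 genes of the 40S subunit and 3 iron genes were called between strains and 0 members between sexes, as without it, and the same counts were obtained when any 1 of the 32 libraries was dropped. Libraries with the same number did not deviate together (median correlation -0.0150 over 112 pairs, from -0.276 to 0.443, and 5 of 32 libraries were closest to their own number), so the numbers do not pair the mice. With the FDR alone, which 80.1% of all tested genes pass, 6 of 6 parents, 4 of 7 other copies and 11 of 18 neighbours were called. So were 32 of 34 genes of the 40S list and 12 of 14 iron genes. DESeq2 called 10 of 67 other copies, and 61 of 296 were called when all genes with a read were tested. Of 18 tested genes within 100 kb of a member 2 were called. The log2 ratio of the highest to the next strain depended on the pseudocount, being 8.57 for Gm12033, 8.27 for Gm13394 and 8.96 for Rps2-ps13 with 0.5, and 7.40, 7.04 and 7.22 with 5, when it was 4.49 for Ftl2-ps and 1.92 for Ftl1-ps1. Without 1 library, that of Rps2-ps13 ranged from 8.51 to 9.03 (the latter without B6 female replicate 2). The r with the parent was 0.712 for Ftl2-ps on the log2 scale (exact p = 0.0454). Without 1 library it ranged from -0.21 to 0.599 for Gm13394 (below 0 without SJL female replicate 4), 0.366 to 0.800 for Ftl2-ps (0.800 without SJL female replicate 1, 0.778 without SJL male replicate 2), -0.382 to 0.479 for Ftl1-ps1 (0.479 without 129 female replicate 1, 0.044 without 129 male replicate 4), 0.456 to 0.895 for Gm15772 and -0.039 to 0.772 for Tmem181b-ps (-0.039 without 129 female replicate 2, 0.772 without 129 male replicate 4). The cause was not tested. Depth limits the precision of the levels of copies at 0 to 4 reads per library.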
